A study of Mus musculus with 9 samples.

Results

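The genes described here encode the muscle's route from glucose and glycogen to lactate: 38 genes, named by symbol, for glucose and lactate transporters, the enzymes of each glycolytic step with their isoenzymes, lactate dehydrogenase, the enzymes that set the phosphofructokinase activator, and the enzymes and regulatory subunits of glycogen breakdown and synthesis. All 38 were found among the 17314 genes of the count table, and 37 passed the filter on low counts. Aldoc, the brain-type aldolase, did not pass it. RNA had been sequenced from gastrocnemius, the large calf muscle, of mice aged 6 months (labelled youth), 15 months (mid) and 21 months (old), with 3 mice per age and 1 library per mouse. No group carried a stated treatment or engineered allele, and strain and sex were not given in the sources used here. The study's title links thyroid hormone receptor alpha with muscle ageing, and the question put to these genes is which of them differed between the ages.

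Muscle takes up glucose through facilitative transporters, traps it by phosphorylation and either stores it as glycogen or splits it to pyruvate, which lactate dehydrogenase can convert to lactate. Fast-twitch fibres carry large amounts of glycolytic enzymes and glycogen phosphorylase for short bursts of work, whereas slow, oxidative fibres carry more of the lactate-importing transporter and of the heart-type lactate dehydrogenase. Most steps have a muscle isoenzyme beside one or more forms that other tissues use, so the ratio of the forms is a second readout of the same libraries.

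Total counts were 15354396 to 17317856 per library, and the genes described here took 5.93 to 7.53% of them. Markers of fast fibres were abundant in every library, as in a mostly fast muscle: a list of 12 summed to between 112137 and 167725 CPM (counts scaled to library size with TMM factors). Slow-fibre markers, also 12 genes, summed to between 111 and 470.2 CPM at 6 months, 430.1 and 1752 CPM at 15 months and 349 and 1542 CPM at 21 months. Mouse 2 at 6 months, mouse 1 at 15 months and mouse 3 at 21 months stood apart from the others on the first principal component, which held 35.2% of the variance. Where their joint omission moved a fold change given below for 1 of the 37 tested genes by more than 1.5 times, the value without them is also given. For other genes it is not given. The same mouse 2 held the lowest slow-fibre sum, and the other 2 of these libraries held the highest sums of their ages. Mouse 2 at 6 months was the highest of the 9 libraries for 15 of the 37 tested genes and the lowest for 8, against 20.3% and 18.7% of all genes tested.

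Upstream sequences are shown for 5 genes that the results turn on: Hk2 and Slc16a1, which were lowest in the 3 mice at 6 months, Pgk1 and Eno3, which were highest in them, and Ppp1r3c, which had the most negative fold changes. Each run is the 250 bases before a transcription start, 5′ to 3′ on the gene's strand, from RefSeq on GRCm38.p6. Capitals mark each match, on either strand, to ACGTG or GCGTG (the core of the hypoxia response element), CACGTG (an E-box, which contains ACGTG) and AGGTCA (the half-site of thyroid hormone and other nuclear receptors). A match read from the other strand appears as CACGT or CACGC.
Hk2, chr6:82774455-82774704, minus strand: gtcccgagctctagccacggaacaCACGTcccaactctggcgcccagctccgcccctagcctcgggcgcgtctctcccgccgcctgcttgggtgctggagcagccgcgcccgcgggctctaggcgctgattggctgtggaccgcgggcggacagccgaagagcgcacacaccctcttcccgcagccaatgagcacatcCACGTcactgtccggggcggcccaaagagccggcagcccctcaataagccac
Slc16a1, chr3:104638414-104638663, plus strand: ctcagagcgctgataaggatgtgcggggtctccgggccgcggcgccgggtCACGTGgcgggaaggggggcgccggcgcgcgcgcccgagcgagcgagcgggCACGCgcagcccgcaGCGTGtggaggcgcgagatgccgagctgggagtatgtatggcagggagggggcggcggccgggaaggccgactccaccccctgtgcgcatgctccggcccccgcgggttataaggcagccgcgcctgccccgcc
Pgk1, chrX:106186850-106187099, plus strand: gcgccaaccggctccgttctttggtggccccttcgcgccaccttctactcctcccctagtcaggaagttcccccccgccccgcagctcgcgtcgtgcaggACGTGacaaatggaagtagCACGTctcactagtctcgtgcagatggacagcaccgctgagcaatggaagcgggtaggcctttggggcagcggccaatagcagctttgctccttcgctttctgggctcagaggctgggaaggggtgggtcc
Eno3, chr11:70656926-70657175, plus strand: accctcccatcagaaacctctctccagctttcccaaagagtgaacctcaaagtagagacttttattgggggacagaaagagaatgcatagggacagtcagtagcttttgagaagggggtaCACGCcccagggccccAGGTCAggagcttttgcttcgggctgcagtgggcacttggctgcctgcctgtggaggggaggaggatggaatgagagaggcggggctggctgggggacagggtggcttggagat
Ppp1r3c, chr19:36736605-36736854, minus strand: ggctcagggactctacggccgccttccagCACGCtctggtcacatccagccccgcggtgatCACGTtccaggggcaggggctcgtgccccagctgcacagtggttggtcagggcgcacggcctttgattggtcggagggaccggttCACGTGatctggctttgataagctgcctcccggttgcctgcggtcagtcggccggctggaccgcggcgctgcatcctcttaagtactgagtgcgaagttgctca

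The first base of the Hk2 matches lay at -226 and -52 from the start, that of the Slc16a1 E-box at -200, and that of the Ppp1r3c E-box at -104. Pgk1 held the hypoxia core at -150 and -131. The Eno3 window, which belongs to a start inside the annotated gene, held GCGTG on the other strand at -130 and AGGTCA at -114. RefSeq windows were found for 36 of the 38 genes, 54 windows in all, and Gpd1 and Slc2a4 had no entry. ACGTG or GCGTG was present in 39 of the 54 (72.2%), against 38.6% of 32851 windows of all genes. CACGTG was present in 7 (13.0%, against 6.02%), AGGTCA in 8 (14.8%, against 14.0%), the MEF2 box, searched by name on both strands, in 3 (5.56%, against 2.92%) and TATAAA in 2 (3.70%, against 12.4%). These are matches of letters, with no binding measured in these files.

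Levels per kilobase of exon differed widely between the genes. Gapdh stood highest, at a mean of 6223 CPM per kb over the 9 libraries (range 5379 to 7526), followed by the muscle aldolase Aldoa at 5584 (range 4787 to 7493), and the ranges of these neighbours overlapped. The muscle enolase Eno3 at 3560.3 (range 2883 to 4449) and glycogen phosphorylase Pygm at 2913 (range 2125 to 3814) overlapped each other, and Eno3 lay below Aldoa in every library. Pgam2, Pfkm, Tpi1, Pkm and Ldha stood between 1319 and 1675 CPM per kb. Several forms that dominate in other tissues were low: Hk1 stood at 3.30, Pfkl at 3.40, Pfkp at 2.75 and Pygb at 3.15 CPM per kb. Others stood higher, with Pgam1 at 14.6, Eno1 at 34.4 and Ldhb at 99.6 CPM per kb. Aldoc was the lowest, at 0.154 CPM per kb, from 4 to 14 reads per library.

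No gene of the 37 passed the edgeR test (quasi-likelihood, adjusted p under 0.05 over all 13044 genes) in any comparison of ages. All 3 mice at 6 months lay above all 6 older mice for 6 of the 37 genes (Eno3, Gapdh, Gpd1, Ldha, Pgk1 and Tpi1), against 3.6% of all genes tested. They lay below all 6 for 2, Hk2 and Slc16a1, against 3.48%. The summed level of the 38 genes was 69326 to 81669 CPM at 6 months, 56422 to 67268 CPM at 15 months and 59265 to 59705 CPM at 21 months. In bulk tissue, fewer fibres of a type and less RNA per fibre cannot be told apart.

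At 21 against 6 months edgeR called 0 of 37 genes, against 0.0153% of all genes tested, and the smallest adjusted p was 0.198 (Hk2). At an unadjusted p under 0.05, 4 genes were higher, against 5.14% of all genes, and 10 were lower, against 5.5%. The older mice all lay above the younger for 2 genes (7.83% of all genes) and below for 11 (8.3%). The log2 fold change was below 0 for 25 of 37, against 52% of all genes, and above 0 for 12, against 48%, with a median of -0.18 against -0.01 over all genes (-0.11 without the 3 libraries that stood apart). At 15 against 6 months edgeR again called 0 (0.00767% of all genes), with the smallest adjusted p 0.194. Unadjusted, 7 genes were higher (4.91% of all) and 6 lower (5.38%), while 5 lay wholly above (6.63%) and 7 wholly below (7.15%) the younger mice. There 21 of 37 fold changes were below 0 (51.4% of all genes) and 16 above (48.6%), and the median was -0.21 against -0.01 (-0.08 without those libraries). DESeq2, run as an alternative to edgeR, called 6 genes at 21 against 6 months (Eno3, Gapdh, Hk2, Ldha, Pgk1 and Slc16a1, against 1.53% of all genes) and 4 at 15 against 6 months (Hk2, Ldha, Pgk1 and Slc16a1, against 0.874%). Limma voom with sample weights called 0 of them in each comparison, against 0.452% of all genes at 21 against 6 months, 0.00767% at 15 against 6 months, 0.00767% at 21 against 15 months and 0.023% over the 3 ages. Leaving out 1 library moved the fold change by more than 1.5 times or turned its sign for 24 of 37 genes at 21 against 6 months, with 6 turned, and for 22 of 37 in the comparison of 15 with 6 months, again with 6 turned. Without the 3 libraries that stood apart, edgeR called 0 of these genes at 21 against 6 months (0.023% of all genes), at 15 against 6 months (0.00766%) and at 21 against 15 months (0%).

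Between 21 and 15 months edgeR called 0 of 37 genes (0% of all genes tested), the smallest adjusted p was 0.9999, and 0 genes reached an unadjusted p under 0.05, against 1.08% of all genes higher and 0.736% lower. Without the 3 libraries that stood apart, 4 genes were lower at an unadjusted p under 0.05 (Gys1, Hk2, Pfkfb1 and Slc2a4, against 3.1% of all genes) and 0 were higher (3.81%). No gene had its 2 age groups apart in either direction, against 2.84% and 3.31% of all genes, and 24 of 37 fold changes were below 0 (50.8% of all genes) and 13 above (49.2%), with a median of -0.05 (-0.11 without mouse 3 at 21 months). DESeq2 also called 0 (0.023% of all genes). The F-test over the 3 ages called 0 (0% of all genes) and reached an unadjusted p under 0.05 for 11, against 8.55%, and DESeq2 called the same 6 genes there as at 21 against 6 months, against 1.56%. The comparisons with 6 months share its 3 mice, so they are not independent of each other.

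**Figure D1:**
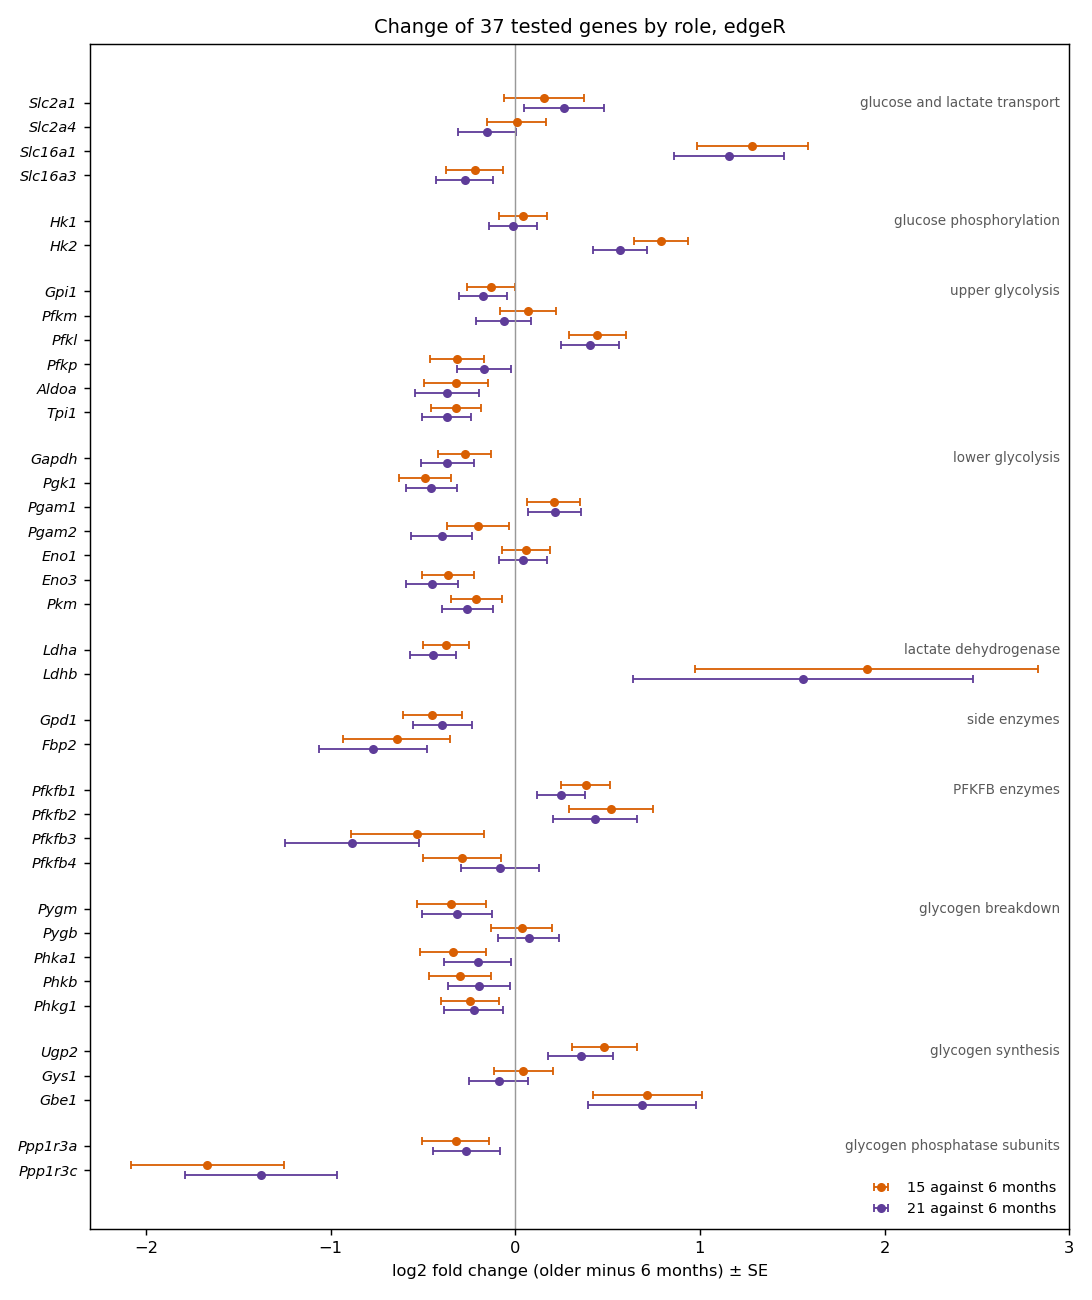
Log2 fold change (older minus 6 months) of the 37 tested genes from edgeR, grouped by role from transporters at the top to glycogen phosphatase subunits at the bottom, with bars giving ± SE. Orange points are 15 and purple points 21 against 6 months. Slc16a1 and Ldhb lie farthest to the right, Ppp1r3c lies farthest to the left, and no gene passed an adjusted p under 0.05.

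Among the transporters, only the lactate transporter Slc16a1 had its age groups apart. Slc16a1, the monocarboxylate transporter that imports lactate into oxidative fibres (chr3:104638664-104658462, GRCm38, plus strand), stood at 53.0, 30.4 and 48.1 CPM in mice 1, 2 and 3 at 6 months, 129, 117 and 74.4 CPM at 15 months and 83.5, 70.3 and 140.1 CPM at 21 months. Every older mouse exceeded every mouse at 6 months, and mouse 2 at 6 months was the lowest of all. The log2 fold change (older minus younger, ± SE here and below) was 1.16 ± 0.30 at 21 against 6 months (edgeR adjusted p = 0.202) and 1.28 ± 0.30 at 15 against 6 months (edgeR adjusted p = 0.248). DESeq2 gave adjusted p = 0.00746 and 0.00321. Without the 3 libraries that stood apart, the change at 21 against 6 months was 0.60. The slow-fibre sums given above overlapped between 6 months and both older ages. Of the 12 slow-fibre markers, 6 had every mouse at 15 months above every mouse at 6 months (6.63% of all genes). At 21 months 3 of them did (7.83%). The part of slow fibres in the difference of Slc16a1 was not tested.

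The other transporters overlapped between ages. Slc16a3, the lactate exporter of fast fibres, stood at 486, 609.9 and 521 CPM at 6 months, 390.1, 525 and 475 CPM at 15 months and 426, 520.0 and 392 CPM at 21 months, a change of -0.27 ± 0.15 at 21 against 6 months (edgeR adjusted p = 0.563) that came to -0.09 without the libraries that stood apart. Slc2a4 encodes GLUT4, the glucose transporter that insulin and contraction bring to the surface. Its levels were 669, 741 and 833 CPM at 6 months, 672, 835 and 749 CPM at 15 months and 551, 663 and 804 CPM at 21 months. No age stood apart, and the change at 21 against 15 months was -0.16 ± 0.16 (edgeR adjusted p over 13044 genes = 0.9999), or -0.38 without those libraries. Slc2a1, the GLUT1 transporter of basal uptake, was low, at 11.8, 7.39 and 11.2 CPM, 14.5, 10.7 and 8.59 CPM and 12.9, 11.0 and 12.5 CPM in the same order of ages.

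Hk2, the muscle hexokinase that traps incoming glucose (chr6:82725025-82774454, GRCm38, minus strand), had the smallest p of the 37 tested genes. It stood at 288, 303 and 362 CPM at 6 months, 469.8, 616 and 563 CPM at 15 months and 415, 469 and 531 CPM at 21 months. The 3 mice at 6 months were the lowest of the 9. The log2 fold change was 0.79 ± 0.15 at 15 against 6 months (edgeR adjusted p = 0.194, unadjusted p = 0.000274) and 0.57 ± 0.15 at 21 against 6 months (edgeR adjusted p = 0.198). DESeq2 gave adjusted p = 0.00025 and 0.0165. At 21 against 15 months it was -0.22 ± 0.15 with overlapping mice, and -0.42 without the 3 libraries that stood apart. Hk1, the hexokinase of most other tissues, stood at 16.2, 13.7 and 17.8 CPM at 6 months, 18.3, 16.5 and 14.4 CPM at 15 months and 15.0, 15.3 and 17.0 CPM at 21 months, with no order by age.

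**Figure D2:**
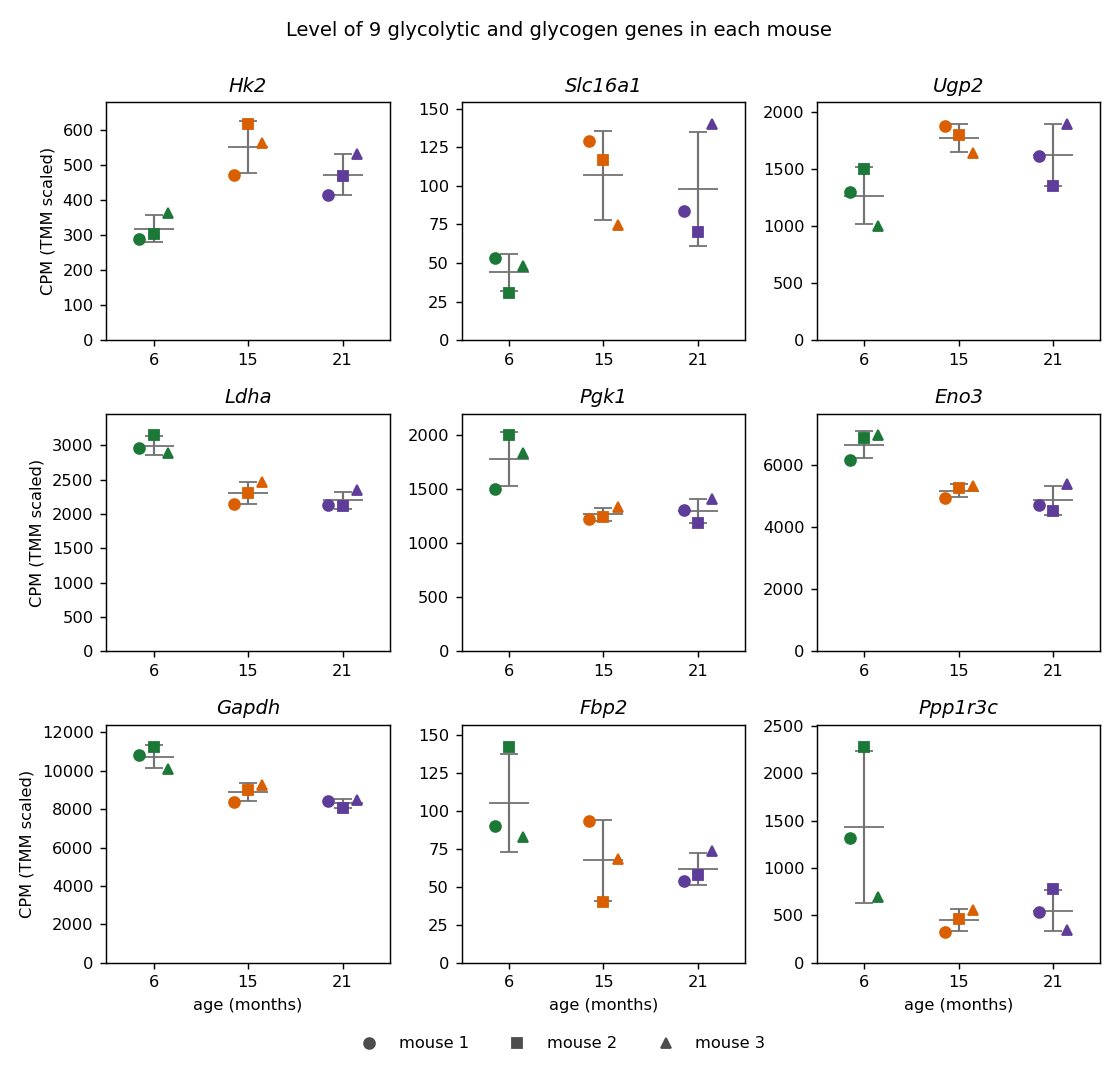
Level in CPM (linear axis from 0) of 9 genes in each of the 9 mice by age in months, with the mean as a horizontal line and bars giving ± SD of 3 mice. The markers give the mouse number, for which the labels state no pairing between ages. Hk2 and Slc16a1 lie lowest at 6 months, while Ldha, Pgk1, Eno3 and Gapdh lie highest there, and Ppp1r3c spreads from 696 to 2281 CPM among the mice at 6 months.

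In upper glycolysis 5 of 6 tested genes had a fold change below 0 at 21 against 6 months, against 52% of all genes. At an unadjusted p under 0.05, 1 was lower (Tpi1, against 5.5% of all genes) and 1 higher (Pfkl, against 5.14%). Tpi1, triosephosphate isomerase (chr6:124810586-124814158, GRCm38, minus strand), which interconverts the trioses that aldolase makes, stood at 2584, 3062 and 2651 CPM at 6 months, 2230.1, 2220.3 and 2189 CPM at 15 months and 1991, 2016 and 2406 CPM at 21 months. The mice at 6 months were the 3 highest, and the changes were -0.37 ± 0.13 at 21 months and -0.32 ± 0.13 at 15 months against 6 months (edgeR adjusted p = 0.357 and 0.443). Aldoa, the muscle aldolase, stood at 16355, 19221 and 14472 CPM at 6 months, 12279.5, 12885 and 14923 CPM at 15 months and 12944, 13319.8 and 12503 CPM at 21 months. Mouse 3 at 15 months passed the lowest mouse at 6 months, and the change at 21 against 6 months was -0.37 ± 0.17 (edgeR adjusted p = 0.479), or -0.23 without the libraries that stood apart.

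Phosphofructokinase, the committed step of glycolysis, showed a different picture for each subunit. Pfkm, the muscle subunit, stood at 4663, 5247 and 4151 CPM at 6 months, 4372, 4849.6 and 5521 CPM at 15 months and 4399, 4470.4 and 4591 CPM at 21 months, with overlap throughout, and its log2 fold change at 21 against 6 months ran from -0.14 to 0.02 over the settings tried. Pfkl, the liver subunit, was low, at 9.11, 11.5 and 10.4 CPM at 6 months, 15.3, 14.7 and 12.2 CPM at 15 months and 11.1, 14.9 and 15.0 CPM at 21 months. At 15 months every mouse was above those at 6 months, with a change of 0.44 ± 0.16 (edgeR adjusted p = 0.38), and at 21 months mouse 1 lay inside their range (0.40 ± 0.16, edgeR adjusted p = 0.383). Pfkp, the platelet subunit, stood at 12.3, 13.0 and 14.3 CPM, 12.4, 9.26 and 9.95 CPM and 12.5, 10.1 and 12.6 CPM in the order of ages, with a change of -0.32 ± 0.15 at 15 against 6 months. A protein-coding gene on the opposite strand overlaps 748 bases of the exons of Pfkp. Gpi1, which converts glucose phosphate to fructose phosphate, ranged from 957 to 1335 CPM and all 3 mice at 21 months lay below those at 6 months, while 15 months overlapped both (-0.18 ± 0.13 at 21 against 6 months, edgeR adjusted p = 0.668, or -0.06 without the libraries that stood apart). A noncoding gene on the opposite strand overlaps 356 bases of its exons. Aldoc lay at 0.251, 0.438 and 0.368 CPM at 6 months, 0.310, 0.308 and 0.569 CPM at 15 months and 0.841, 0.656 and 0.371 CPM at 21 months.

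Lower glycolysis held the most genes with the 6-month mice above all older mice, at 3 of 7 (Gapdh, Pgk1 and Eno3), against 3.6% of all genes tested. The summed level of the 7 genes was 23807 to 25685 CPM at 6 months, 18975 to 21001 CPM at 15 months and 18142 to 20084 CPM at 21 months. Pgk1, phosphoglycerate kinase, which makes the first ATP of the pathway (chrX:106187100-106203699, GRCm38, plus strand), stood at 1502, 1997 and 1833 CPM at 6 months, 1221, 1244 and 1336 CPM at 15 months and 1306, 1182 and 1404 CPM at 21 months. The groups did not overlap with 6 months, and the changes were -0.45 ± 0.14 at 21 months and -0.49 ± 0.14 at 15 months (edgeR adjusted p = 0.263 and 0.315; DESeq2 0.0382 and 0.0279). Eno3, the muscle enolase (chr11:70653125-70662513, GRCm38, plus strand), stood at 6159, 6874 and 6967 CPM at 6 months, 4946, 5274 and 5326 CPM at 15 months and 4715, 4515 and 5403 CPM at 21 months. It was lower in every older mouse, by log2 fold changes of -0.45 ± 0.14 at 21 months and -0.36 ± 0.14 at 15 months (edgeR adjusted p = 0.279 and 0.41), and DESeq2 passed it at 21 months only (0.00475 and 0.0649).

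Gapdh, glyceraldehyde phosphate dehydrogenase, often taken as a reference gene (chr6:125161852-125166467, GRCm38, minus strand), was also lower. Its levels were 10838, 11252 and 10080.0 CPM at 6 months, 8373, 8973 and 9277 CPM at 15 months and 8430.2, 8042 and 8465 CPM at 21 months. Each older mouse lay under each mouse at 6 months, with changes of -0.37 ± 0.14 and -0.27 ± 0.14 at 21 and 15 months (edgeR adjusted p = 0.389 and 0.547). DESeq2 passed the first (adjusted p = 0.00576) and not the second (0.118). Mouse genomes carry processed copies of Gapdh and of several other glycolytic genes, and how the authors' counting shared reads among them is not given, so these levels are uncertain to that extent.

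Pgam2, the muscle phosphoglycerate mutase, stood at 1553, 1364 and 1902 CPM at 6 months, 1439, 1463 and 1291 CPM at 15 months and 1049, 1145 and 1459.8 CPM at 21 months. Mouse 3 at 6 months was the highest, 2 of the 3 mice at 21 months were the lowest, and the changes were -0.40 ± 0.17 at 21 against 6 months (edgeR adjusted p = 0.431; -0.65 without the libraries that stood apart) and -0.20 ± 0.17 at 21 against 15 months (-0.33 without them). Pgam1, the form of other tissues, stood at 25.1, 20.0 and 25.2 CPM at 6 months, 30.3, 29.2 and 21.9 CPM at 15 months and 26.9, 25.1 and 29.6 CPM at 21 months. Eno1, the enolase of most tissues, stood at 81.3, 75.9 and 99.3 CPM at 6 months, 88.0, 89.5 and 89.6 CPM at 15 months and 80.8, 80.1 and 103 CPM at 21 months, with no order by age. Pkm, pyruvate kinase, ranged from 2878 to 4102 CPM, and its change of -0.26 at 21 against 6 months did not pass the test.

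Lactate dehydrogenase showed a uniform difference in one subunit and a scattered one in the other. Ldha, the muscle subunit (chr7:46842274-46855627, GRCm38, plus strand), stood at 2953, 3145 and 2880.2 CPM at 6 months, 2147, 2302 and 2472 CPM at 15 months and 2127, 2118 and 2347 CPM at 21 months. The mice at 6 months were the 3 highest, and the changes were -0.45 ± 0.12 at 21 months and -0.38 ± 0.12 at 15 months (edgeR adjusted p = 0.229 and 0.361; DESeq2 0.00168 and 0.0245). Ldhb, the heart subunit that favours lactate oxidation, stood at 97.5, 3.25 and 51.2 CPM at 6 months, 289.8, 201 and 78.4 CPM at 15 months and 80.5, 68.6 and 299 CPM at 21 months. The ages overlapped, and the lowest library and the 2 highest were the 3 that stood apart. The change at 21 against 6 months was 1.56 ± 0.92 (edgeR adjusted p = 0.579) with all libraries and 0.00 without these 3, and at 15 against 6 months it was 1.90 ± 0.93 and 0.91.

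Both side enzymes had fold changes below 0 at 21 months (52% of all genes) and at 15 months (51.4%), and neither passed the test. Gpd1, glycerol phosphate dehydrogenase, which links glycolysis to the glycerol phosphate shuttle, stood at 582, 608 and 753 CPM at 6 months, 375, 525 and 523 CPM at 15 months and 477, 542 and 458 CPM at 21 months. All older mice were below the mice at 6 months, with changes of -0.40 ± 0.16 and -0.45 ± 0.16 at 21 and 15 months (edgeR adjusted p = 0.415 and 0.382). An antisense gene overlaps 384 bases of its exons, and reads of the pair cannot be told apart without strand. Fbp2, the muscle fructose bisphosphatase, which runs the phosphofructokinase step backwards, stood at 90.4, 143 and 83.2 CPM at 6 months, 93.8, 40.3 and 68.7 CPM at 15 months and 53.6, 57.9 and 73.9 CPM at 21 months. The mice at 21 months lay below those at 6 months (-0.77 ± 0.29, edgeR adjusted p = 0.377), while mouse 1 at 15 months lay above 2 of them (-0.64 ± 0.29, edgeR adjusted p = 0.486). Without mouse 2 at 6 months the changes were -0.49 and -0.36.

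The PFKFB enzymes, which make and remove the activator of phosphofructokinase, differed in sign among themselves. Pfkfb3, the form with the most kinase relative to phosphatase activity, stood at 1138, 642 and 1168 CPM at 6 months, 547, 435 and 1060.1 CPM at 15 months and 699, 547 and 353 CPM at 21 months. Mouse 2 at 6 months overlapped the older mice, and the change at 21 against 6 months was -0.88 ± 0.36 (edgeR adjusted p = 0.422). Pfkfb1, the liver and muscle form, stood at 62.1, 53.4 and 66.5 CPM at 6 months, 81.0, 78.0 and 78.0 CPM at 15 months and 65.3, 64.0 and 86.7 CPM at 21 months. At 15 months its mice all lay above those at 6 months (0.38 ± 0.13, edgeR adjusted p = 0.376), and the change at 21 against 6 months of 0.25 ± 0.13 was 0.01 without the libraries that stood apart. Pfkfb2 ranged from 20.0 to 49.6 CPM, with a change of 0.43 at 21 against 6 months, or 0.11 without those libraries. Pfkfb4 ranged from 53.0 to 99.4 CPM, and its sign changed from -0.08 to 0.32 without them. Other protein-coding genes overlap 1395 bases of the exons of Pfkfb2.

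In glycogen breakdown 4 of 5 genes had a fold change below 0 at both older ages. Over all genes 52% lay below 0 at 21 against 6 months and 51.4% at 15 against 6 months. An unadjusted p under 0.05 was reached by 0 of 5. The share of all genes reaching it was 5.14% higher and 5.5% lower at 21 months, and 4.91% and 5.38% at 15 months. Pygm, the muscle glycogen phosphorylase, stood at 9310.4, 10962 and 8816 CPM at 6 months, 6106, 7727 and 9053 CPM at 15 months and 7955, 8547 and 6863 CPM at 21 months. Mouse 2 at 6 months was the highest and mouse 1 at 15 months the lowest, and the change at 21 against 6 months was -0.32 ± 0.19 (edgeR adjusted p = 0.584), or -0.14 without the libraries that stood apart. Pygb, the brain form, stood at 11.2, 11.1 and 13.6 CPM at 6 months, 15.4, 10.2 and 11.2 CPM at 15 months and 11.9, 12.1 and 14.0 CPM at 21 months, with no order by age. The subunits of phosphorylase kinase, which switches phosphorylase on, ranged from 1309 to 2265 CPM for Phka1, 521 to 889.8 CPM for Phkb and 464 to 765 CPM for Phkg1. Their changes at 21 against 6 months were -0.20, -0.19 and -0.23, and without the 3 libraries they were 0.03, -0.00 and -0.16, so that of Phka1 changed sign. A protein-coding gene on the opposite strand overlaps 630 bases of the exons of Phkg1.

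In glycogen synthesis 3 of 3 genes had a fold change above 0 at 15 against 6 months, against 48.6% of all genes, and that of Gys1 was close to 0. Ugp2, which makes the activated glucose that glycogen synthase uses, stood at 1300.2, 1498 and 999.6 CPM at 6 months, 1872, 1796 and 1639 CPM at 15 months and 1608, 1352 and 1892 CPM at 21 months. The mice at 15 months all lay above those at 6 months (0.48 ± 0.18, edgeR adjusted p = 0.393), and mouse 2 at 21 months lay within their range (0.35 ± 0.18, edgeR adjusted p = 0.504). Omitting mouse 3 of the 6-month group gave 0.22, and omitting mouse 3 of the 21-month group gave 0.23 there. Gbe1, the branching enzyme, was 59.9 to 129 CPM at 6 months, 101 to 179.9 CPM at 15 months and 109 to 168 CPM at 21 months, with changes of 0.71 and 0.69 and overlapping ages, the second of which was 1.03 without mouse 1 of the youngest group. Gys1, the muscle glycogen synthase, ranged from 383 to 586 CPM. Its change was 0.04 at 15 against 6 months, or 0.03 without the libraries that stood apart. At 21 against 6 months it was -0.09, or -0.31 without those libraries.

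Ppp1r3c, a targeting subunit that brings protein phosphatase to glycogen and favours its synthesis (chr19:36731731-36736604, GRCm38, minus strand), had the most negative fold changes of the 37 genes. It stood at 1321, 2281 and 696 CPM at 6 months, 328, 465 and 560.4 CPM at 15 months and 535, 777 and 344 CPM at 21 months. The mice at 15 months lay below all those at 6 months, mouse 2 at 21 months lay above the lowest of them, and mouse 2 at 6 months was far above the rest. The changes were -1.67 ± 0.42 at 15 months and -1.38 ± 0.41 at 21 months (edgeR adjusted p = 0.25 and 0.255), and they came to -0.98 and -0.62 without the libraries that stood apart. Ppp1r3a, the striated muscle subunit, ranged from 810.3 to 1497 CPM, with a change of -0.26 at 21 against 6 months that turned to 0.03 without them.

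Ratios of paired forms compare genes inside a library and need no scaling between libraries. Each of 9 ratios per kilobase was tested over the 3 ages with an exact permutation test of F (280 splits, smallest possible p 0.00357), adjusted over the 9, and 3 passed an adjusted p under 0.05. The pairs were chosen with earlier results of these libraries known. The ratio of Hk2 to Hk1 was 15.4, 19.1 and 17.6 in mice 1, 2 and 3 at 6 months, 22.2, 32.4 and 33.8 at 15 months and 23.9, 26.5 and 27.0 at 21 months. It was lower in every mouse at 6 months, and the ages differed (exact permutation p = 0.0143, adjusted 0.0429), with mean log2 differences from 6 months of 0.74 and 0.58. Without mouse 1 at 6 months its exact permutation p was 0.0679. The ratio of Pgam2 to Pgam1 was 131, 144 and 159 at 6 months, 100.3, 106 and 125 at 15 months and 82.3, 96.3 and 104 at 21 months. All 6 older mice lay below those at 6 months (exact permutation p = 0.00714, adjusted 0.0429, mean log2 difference -0.62 at 21 against 6 months).

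The ratio of Eno3 to Eno1 was 123, 147 and 114 at 6 months, 91.4, 95.8 and 96.6 at 15 months and 94.9, 91.7 and 85.1 at 21 months. The older mice again lay below all at 6 months (exact permutation p = 0.0107, adjusted 0.0429, mean log2 difference -0.49 at 21 against 6 months). Without the 3 libraries that stood apart, each of these 3 ratios had an exact permutation p of 0.0667, the smallest that 2 mice per age can give, with the same direction. The ratio of Slc16a3 to Slc16a1 was 9.13 to 19.9 at 6 months, 3.01 to 6.35 at 15 months and 2.78 to 7.36 at 21 months, with no overlap with 6 months, and missed the threshold after adjustment (exact permutation p = 0.0464, adjusted 0.0836). The ratio of Aldoa to Aldoc gave the same p values and rests on 4 to 14 reads of Aldoc. Ldha to Ldhb ran from 20.8 to 665 at 6 months, where mouse 2 was extreme, to 5.10 to 21.7 at 15 months and 5.41 to 21.2 at 21 months (exact permutation p = 0.125, adjusted 0.188). Pfkm to Pfkl, Slc2a4 to Slc2a1 and Pygm to Pygb gave exact permutation p values of 0.171, 0.432 and 0.45.

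**Figure D3:**
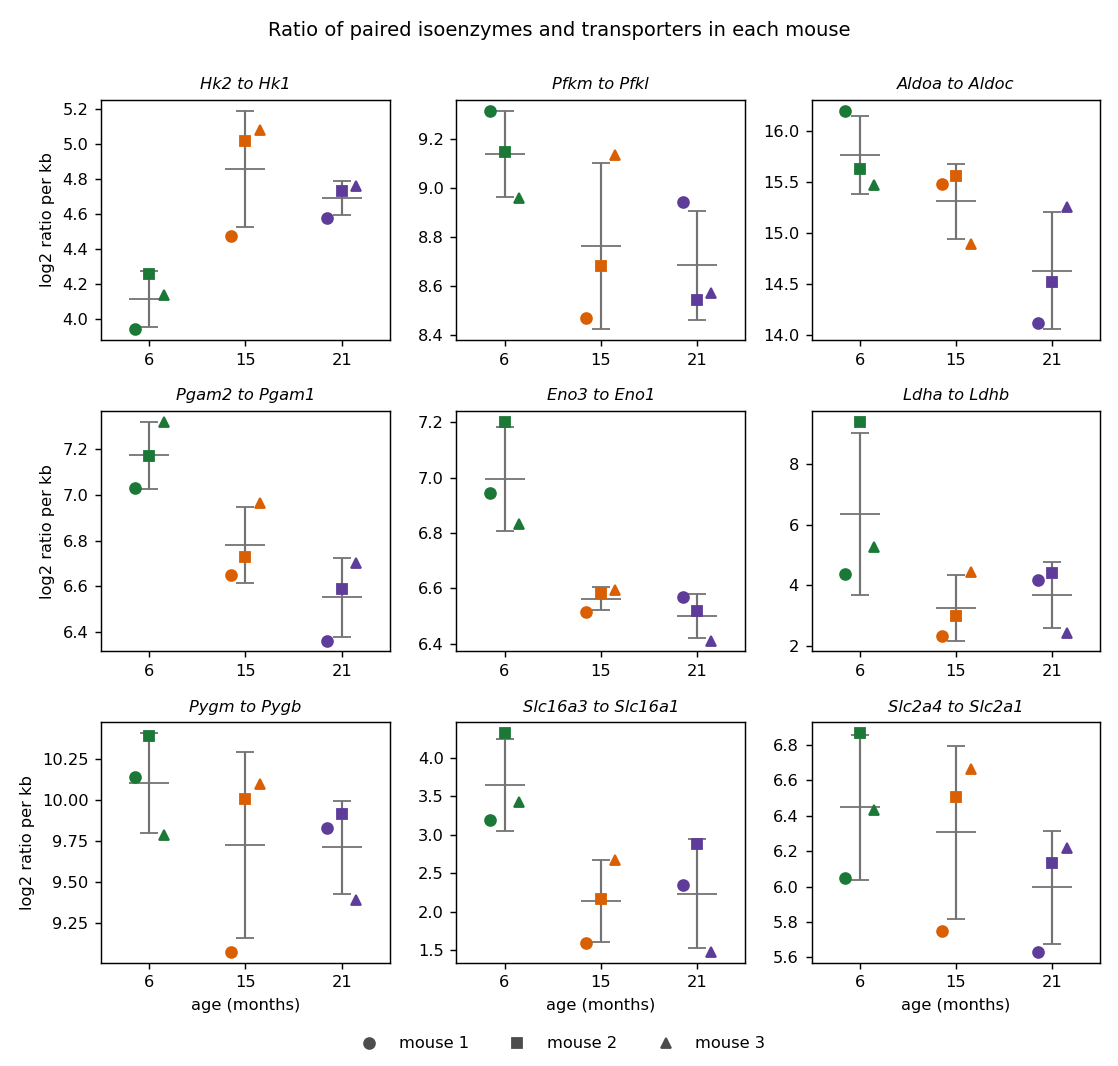
Log2 ratio of the CPM per kb of 9 pairs of isoenzymes or transporters in each mouse, by age in months, with the mean as a horizontal line and bars giving ± SD of 3 mice (each panel has its own axis, which does not start at 0). The ratio of Hk2 to Hk1 is lowest, and those of Pgam2 to Pgam1 and Eno3 to Eno1 are highest, in the 3 mice at 6 months. In the panel of Ldha to Ldhb, mouse 2 at 6 months lies far above the others.

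Because slow-fibre markers differed between the libraries, 6 genes were set against Myh7, the slow myosin heavy chain, over the 9 libraries on a log2 CPM scale. Antisense genes overlap 1128 bases of the exons of Myh7, and reads of the strands cannot be told apart. Myh7 itself stood at 2.30, 0.438 and 12.8 CPM at 6 months, 166, 49.7 and 22.7 CPM at 15 months and 4.68, 18.7 and 156 CPM at 21 months. The sum of the 12 slow-fibre markers did not rank the libraries in the same order. Mouse 1 at 6 months had a sum of 470.2 CPM. Mouse 3 at 15 months (430.1 CPM) and mouse 1 at 21 months (349 CPM) had smaller sums but more Myh7. Relations with the sum were not tested. Slc16a1 followed Myh7, with Pearson r = 0.90 (exact permutation p = 0.00109, adjusted over the 6 relations 0.0038) and Spearman rho = 0.85 (exact permutation p = 0.00607). Ldhb gave r = 0.86 (exact permutation p = 0.00186, adjusted 0.0038) and rho = 0.72 (exact permutation p = 0.0369). Hk2 gave r = 0.80 (exact permutation p = 0.0103, adjusted 0.0155) and rho = 0.82 (exact permutation p = 0.0108). So mice with more Myh7 RNA had more RNA of these 3 genes.

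Pygm ran opposite to Myh7, with r = -0.89 (exact permutation p = 0.0019, adjusted 0.0038) and rho = -0.85 (exact permutation p = 0.00607). Ldha gave r = -0.68 (exact permutation p = 0.0463, adjusted 0.0556; rho = -0.50, p = 0.178) and Gpd1 r = -0.59 (exact permutation p = 0.094, adjusted 0.094; rho = -0.73, p = 0.0311). Without the 2 libraries farthest from the median of Myh7 (mouse 2 at 6 months and mouse 1 at 15 months), r was 0.77 for Slc16a1 and 0.81 for Hk2 (exact permutation p = 0.0413 and 0.0278). For Ldhb, Pygm, Ldha and Gpd1 r was then 0.67, -0.73, -0.36 and -0.36 (exact permutation p = 0.1, 0.0633, 0.426 and 0.441). The 7 libraries left still held mouse 3 at 21 months, the highest for Slc16a1 and Ldhb and 1 of the 3 that stood apart. With these 7 libraries r for Ldhb and Pygm no longer reached p under 0.05, though r for Pygm was near in size to that for Slc16a1. With all 9, r for Ldha and Gpd1 had not passed after adjustment. The rho of Gpd1 had passed (exact permutation p adjusted over the 6 relations 0.0442), and that of Ldha had not (0.178). The ages are pooled here and Myh7 was itself lower in every mouse at 6 months than at 15 months, so age and Myh7 cannot be told apart, and 3 mice per age are too few for a relation within an age.

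**Figure D4:**
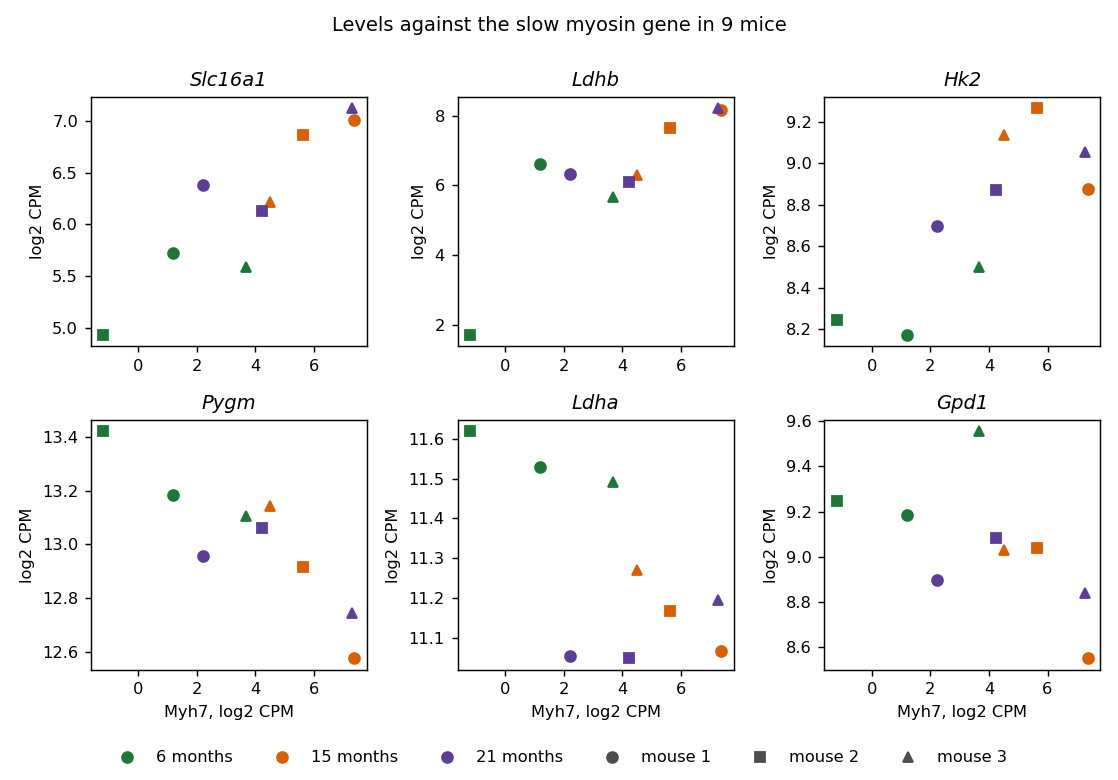
Level of 6 genes (log2 CPM, vertical axes) against that of Myh7, the slow myosin gene (log2 CPM, horizontal axes), in 9 mice, with colour for age and marker for mouse number. Slc16a1, Ldhb and Hk2 rise from left to right and Pygm falls. Mouse 2 at 6 months lies alone at the left edge of each panel.

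Markers of other cells also differed between the libraries. Over all genes tested, 51.4% of fold changes were below 0 and 48.6% above at 15 against 6 months. At 21 against 6 months these shares were 52% and 48%. The fast-fibre list of 12 genes had 11 fold changes below 0 at both older ages, and its sum was 151514 to 167725 CPM at 6 months, 112137 to 162663 CPM at 15 months and 124989 to 152266 CPM at 21 months. The slow-fibre list had 12 of 12 above 0 at both. For 6 of the 12 at 15 months and 3 at 21 months, every older mouse exceeded every mouse of 6 months. Over all genes these shares were 6.63% and 7.83%. The fast oxidative fibre list was Myh2 alone, a myosin gene, whose levels were 1611, 0.755 and 530.0 CPM at 6 months, 4395, 2825 and 834 CPM at 15 months and 1267, 967 and 3642 CPM at 21 months, with changes of 1.91 ± 1.40 and 1.46 ± 1.39 at 15 and 21 months. Its lowest library and its 2 highest were the 3 that stood apart, so these changes rest largely on them. The macrophage list had 10 of 10 below 0 at both, with sums of 193 to 295 CPM at 6 months, 106 to 221 CPM at 15 months and 132 to 207 CPM at 21 months. Sums for endothelial, red cell, adipocyte, satellite cell, fibro-adipogenic, smooth muscle and neutrophil markers overlapped between all ages, but single markers could still differ. Smooth muscle markers had 5 of 5 fold changes above 0 at both older ages. Adipocyte markers had 4 of 5 below 0 and 1 above in either older group (median log2 fold change -1.48 for 15 months, -1.17 for 21 months). Endothelial markers at 21 months had 3 fold changes above 0 and 4 below. For 2 of these 7, every mouse of 21 months exceeded every mouse of 6 months, against 7.83% of all genes. The smallest edgeR adjusted p of the 7 was 0.135. Schwann cell markers summed to 37.7 to 65.7 CPM at 6 months, 54.5 to 100.04 CPM at 15 months and 49.0 to 52.0 CPM at 21 months. The range at 6 months overlapped both others. The part of these cells in the differences above was not tested.

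The rest of the pathway showed no called gene either. Of 55 further genes of glycolysis, glycogen and glucose transport, 52 were in the table and 45 were tested, and edgeR called 0 in each comparison. At an unadjusted p under 0.05, 1 was higher and 4 were lower at 21 against 6 months (5.14% and 5.5% of all genes), and 1 was higher and 2 were lower at 15 against 6 months (4.91% and 5.38%). Bpgm, which diverts a glycolytic intermediate to bisphosphoglycerate, stood at 115, 145 and 118 CPM at 6 months, 84.7, 82.1 and 103 CPM at 15 months and 74.4, 91.4 and 102 CPM at 21 months. All older mice lay below those at 6 months, with a change of -0.50 ± 0.15 at 21 months (edgeR adjusted p = 0.248). Ppp1r3f, another glycogen-targeting subunit, stood at 4.78, 5.26 and 5.09 CPM, 4.77, 4.56 and 4.49 CPM and 3.00, 4.36 and 3.21 CPM in the order of ages (-0.52 ± 0.17 at 21 against 6 months, edgeR adjusted p = 0.326). Gsk3b, a kinase that restrains glycogen synthase, stood at 137 ± 26.9, 112 ± 13.5 and 103 ± 7.88 CPM (mean ± SD, n = 3 mice each).

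Of 25 regulators, all tested, edgeR also called 0, and at 21 against 6 months 1 was higher and 2 were lower at an unadjusted p under 0.05 (5.14% and 5.5% of all genes). Thra, which encodes the receptor in the study's title, stood at 90.1, 106 and 93.3 CPM at 6 months, 78.4, 65.5 and 82.0 CPM at 15 months and 78.4, 71.4 and 74.6 CPM at 21 months. The mice at 6 months were the 3 highest, with changes of -0.37 ± 0.11 and -0.36 ± 0.11 at 21 and 15 months (edgeR adjusted p = 0.254 and 0.342). Hif1a, the hypoxia factor that drives many glycolytic genes, was higher at 21 months in each mouse, at 49.5, 50.7 and 48.3 CPM against 39.8, 35.5 and 42.9 CPM at 6 months and 44.8, 39.3 and 37.7 CPM at 15 months (0.33 ± 0.10 at 21 against 6 months, edgeR adjusted p = 0.263). Mlxip, a glucose-sensing transcription factor, stood at 196 ± 48.8, 137 ± 21.3 and 133 ± 13.9 CPM (mean ± SD, n = 3 mice each), with a change of -0.56 ± 0.18 at 21 against 6 months (edgeR adjusted p = 0.302).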

How the data were processed

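RNA from gastrocnemius of 9 mice, 3 per age, was extracted with TRIzol, selected with oligo(dT) beads and sequenced on DNA nanoballs, per the labels' protocols. The authors deposited 1 table of estimated counts per gene and library. Between 90.0 and 90.7% of its values were whole within 0.005, and 0 columns belonged to other samples. Per the submitters' processing notes the genome build was mm10. No aligner, counter or strand setting is named in the labels or the file.

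The estimated counts were rounded and filtered with filterByExpr (minimum count 10), which left 13044 of 17314 genes. Library sizes were scaled by TMM (factors 0.923 to 1.05). EdgeR 4.0.16 in R 4.3.3 fitted its quasi-likelihood model with 1 coefficient per age over the 9 libraries together (6 residual and 4.24 prior degrees of freedom, biological coefficient of variation 0.164), with Benjamini-Hochberg adjustment over all genes. Levels per kb used merged exons of GENCODE vM21 transcripts on GRCm38, where the exons of 12 of 38 genes overlap another gene. Ratios and correlations were tested by exact two-sided permutation over mice. P-values measure the spread between these mice.

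The genes, lists, pairs and tests were chosen with earlier results of these data known. Genes given per mouse were those with the smallest p (8, 5, 5 and 5 over the comparisons), the top gene per kb of each role and both genes of each ratio; some others are also given so. Of the further pathway genes and regulators, the 3 with the smallest p over the 3 ages are named. Alternatives were DESeq2 1.42.0, RLE scaling, 2 other filters, a block for replicate number, fits of each pair of ages alone, voom (limma 3.58.1) and omission of each library. Scaling by total count, and omission of the 3 libraries that stood apart, were added after seeing the data.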

Additional observations from a re-analysis of the deposited data

How the results depend on the processing

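DESeq2 in place of edgeR called 6 genes at 21 against 6 months, 4 at 15 against 6 months and 6 over the 3 ages, where edgeR called 0, and the cause was not tested. Under every other alternative run, leaving out any library included, 0 of the glycolytic and glycogen genes were called in any comparison, while 0 to 0.452% of all genes were called at 21 against 6 months (most, 59 genes, with voom), 0 to 0.0758% at 15 against 6 months, 0 to 0.00767% at 21 against 15 months and 0 to 0.0758% over the 3 ages. The median log2 fold change at 21 against 6 months was -0.0900 with total count scaling and -0.11 without the 3 libraries that stood apart, and ranged from -0.22 to -0.10 when each library was left out in turn, with -0.10 without mouse 2 at 6 months. At 15 against 6 months it was -0.15 with voom, -0.14 with total count scaling and -0.0807 without the 3 libraries. Leaving out each library gave -0.23 to -0.0594 there, of which the values nearest 0 came from omitting mouse 2 of the 6-month group (-0.0594) and mouse 1 of the 15-month group (-0.12). At 21 against 15 months leaving out each library gave -0.11 to -0.0231, with -0.11 without mouse 3 at 21 months. Total count scaling moved the median of all genes at 21 against 6 months to 0.07.

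Leaving out each library gave exact permutation p values of 0.00357 to 0.0679 for the ratio of Hk2 to Hk1, 0.0107 to 0.0429 for Pgam2 to Pgam1 and 0.00714 to 0.025 for Eno3 to Eno1. The labels state no pairing of mice between ages. Deviations of same-numbered mice had correlations from -0.42 to 0.41, and 2 of 9 libraries correlated best with their own number. With 3 mice per age these values cannot exclude a shared batch. With the replicate number as a block 0 genes were called in each comparison, and the medians were -0.17, -0.22 and -0.05 at 21 against 6, 15 against 6 and 21 against 15 months. With 3 mice per age and 15354396 to 17317856 counts per library, genes such as Aldoc, at 4 to 14 reads, are limited by counting error as well.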
